A study of Homo sapiens with 22 samples.

Results

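KMS11 is a cell line of multiple myeloma, a cancer of plasma cells, and carries the t(4;14) translocation. Accessible chromatin was compared between KMS11 treated for 10 days with NSD2LDD, a compound that degrades the histone methyltransferase NSD2, and KMS11 kept for 10 days in its vehicle DMSO. The comparison took the 2 NSD2LDD and 2 DMSO libraries labelled KMS11, day 10, which are 4 of the 22 ATAC-seq libraries of the series. The other 8 KMS11 libraries served as context and to estimate the spread: 2 untreated at day 0, 4 from day 4 (2 per treatment), and 2 untreated at day 0 whose genotype is given as TKO. The genotype of the other KMS11 libraries is given as t(4;14). The sources used here give neither the dose of NSD2LDD nor the meaning of TKO. They also do not say whether the duplicates (Dup1 and Dup2) came from separate cultures, so the spread behind the p-values may be technical.

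In t(4;14) myeloma the immunoglobulin heavy chain locus drives NSD2, which places dimethyl marks on lysine 36 of histone H3 (H3K36me2) across gene bodies and the space between genes. H3K36me2 hinders the repressive methylation of lysine 27 by the Polycomb complex PRC2, so an excess of NSD2 is known to redistribute both marks. ATAC-seq uses the Tn5 transposase to cut and tag open DNA, and clusters of cuts are called as peaks, mostly over promoters and enhancers. The deposited files list peaks but no read counts. The depth of each library is therefore unknown, and an uncalled site may be closed or only thinly sequenced. The measure used throughout is the number of bases (bp) of a region or gene that called peaks cover in a library.

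The Dup2 libraries stood apart from the Dup1 libraries in both conditions. Peaks numbered 34115 (Dup1) and 36148 (Dup2) in DMSO, and 35825 and 37695 under NSD2LDD. They covered 17.9 and 26.7 Mb in DMSO and 18.0 and 27.1 Mb under NSD2LDD, so that Dup1 lay below Dup2 in either condition while the conditions overlapped. Median peak width was 446 and 649 bp in DMSO and 417 and 633 bp under NSD2LDD, and peaks over 1000 bp made up 9.03% and 23.3% in DMSO and 7.95% and 22.3% under NSD2LDD. The mean difference in covered length between conditions, 0.263 Mb, ran from -4.32 to 4.84 Mb when 1 of the 4 libraries was left out. The share of covered bases within 1 kb of a gene end was 44.1% and 38.6% in DMSO and 43.3% and 37.1% under NSD2LDD. With 2 libraries against 2 the smallest exact two-sided p is 0.333, so none of these values was tested. Of 9 plasma cell marker genes, 8 were covered in all 4 libraries, with a summed coverage of 10721 and 16965 bp in DMSO and 11574 and 17240 bp under NSD2LDD. The ninth, SLAMF7, a surface receptor, had no called peak in any. Markers of other lineages were covered in part: 2 of 4 B cell and 3 of 4 T cell markers in each of the 4 libraries, 2 or 3 of 4 erythroid and 2 to 4 of 4 stromal markers. Of 4 myeloid markers none was covered in DMSO, and 1 in the Dup2 NSD2LDD library (258 bp).

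**Figure D1:**
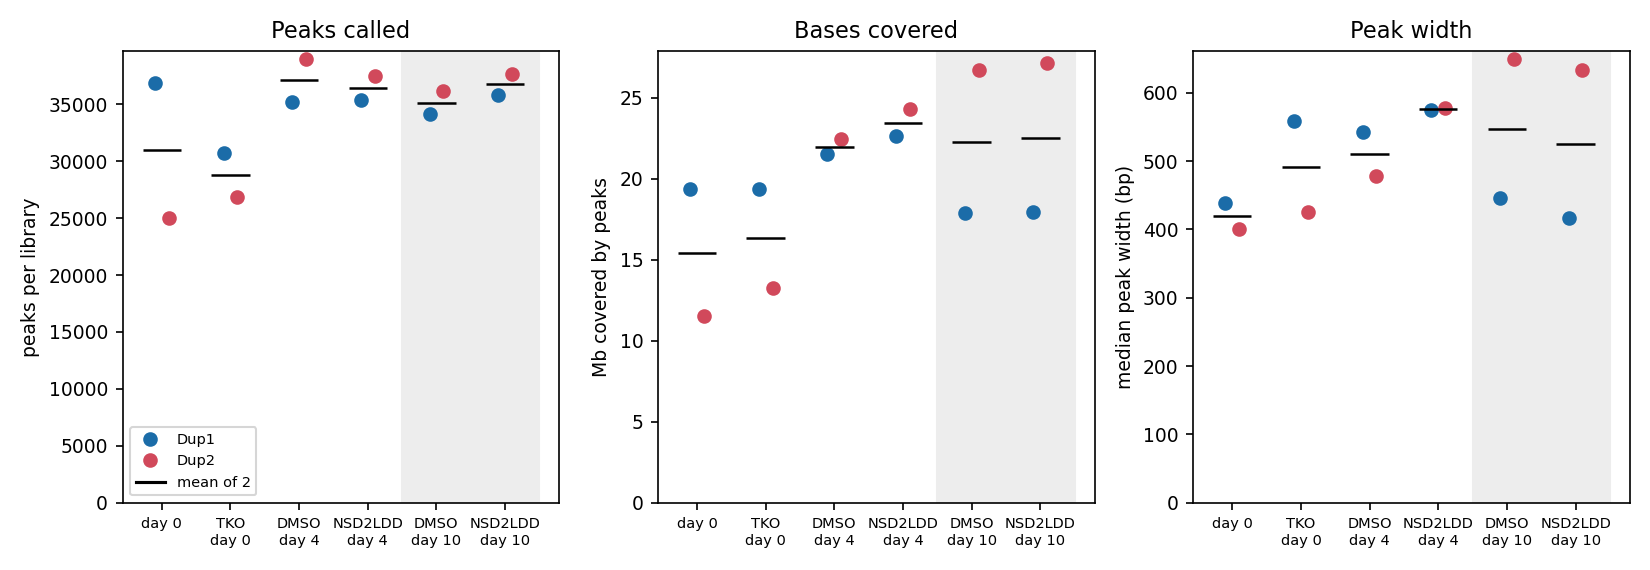
Peaks per library, bases covered by peaks (Mb) and median peak width (bp) in the 12 KMS11 libraries, 1 point per library (blue Dup1, red Dup2) with the mean of 2 as a line and the day 10 groups shaded. At day 10 the Dup1 lists cover 17.9 and 18.0 Mb and the Dup2 lists 26.7 and 27.1 Mb, whichever the treatment.

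By covered bases, overlap between the peak lists followed the duplicate number more closely than the treatment. The Jaccard index (shared over combined covered bases) was 0.580 for the DMSO pair and 0.555 for the NSD2LDD pair. It was 0.672 between the DMSO and NSD2LDD libraries numbered Dup1 and 0.678 between those numbered Dup2. The 2 pairs that shared neither gave 0.559 and 0.563, close to the pairs of 1 condition. This index is limited where lists differ in covered length, as Dup1 and Dup2 did. Counted in peaks, 88.6% of DMSO Dup1 peaks overlapped DMSO Dup2, 88.4% NSD2LDD Dup2 and 85.0% NSD2LDD Dup1. Of DMSO Dup2 peaks, 85.4% overlapped NSD2LDD Dup2, 79.7% NSD2LDD Dup1 and 79.1% DMSO Dup1. Peaks thus overlapped the wider Dup2 lists most, whichever the treatment.

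Merging the 4 lists on chromosomes 1 to 22 and X gave 47482 regions, of which 25547 (53.8%) were called in all 4 libraries. Another 4920 were called in exactly 3, 5548 in exactly 2 and 11467 in 1. Both DMSO libraries and no NSD2LDD library held 727 regions (1.53% of all regions), and both NSD2LDD libraries and no DMSO library held 1095 (2.31%). For comparison, 1871 regions were called only in the 2 Dup2 libraries, 621 only in the 2 Dup1 libraries, and 627 and 607 only in the 2 crossed pairs. In the lists as deposited, the NSD2LDD pair shared more private regions than any pair except the Dup2 pair. There the DMSO pair shared somewhat more than the crossed pairs. With lists shortened to equal length the counts were closer, 853 for DMSO and 887 for NSD2LDD. The other pairs were not counted at equal length, so the ranking holds only for the deposited lists.

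**Figure D2:**
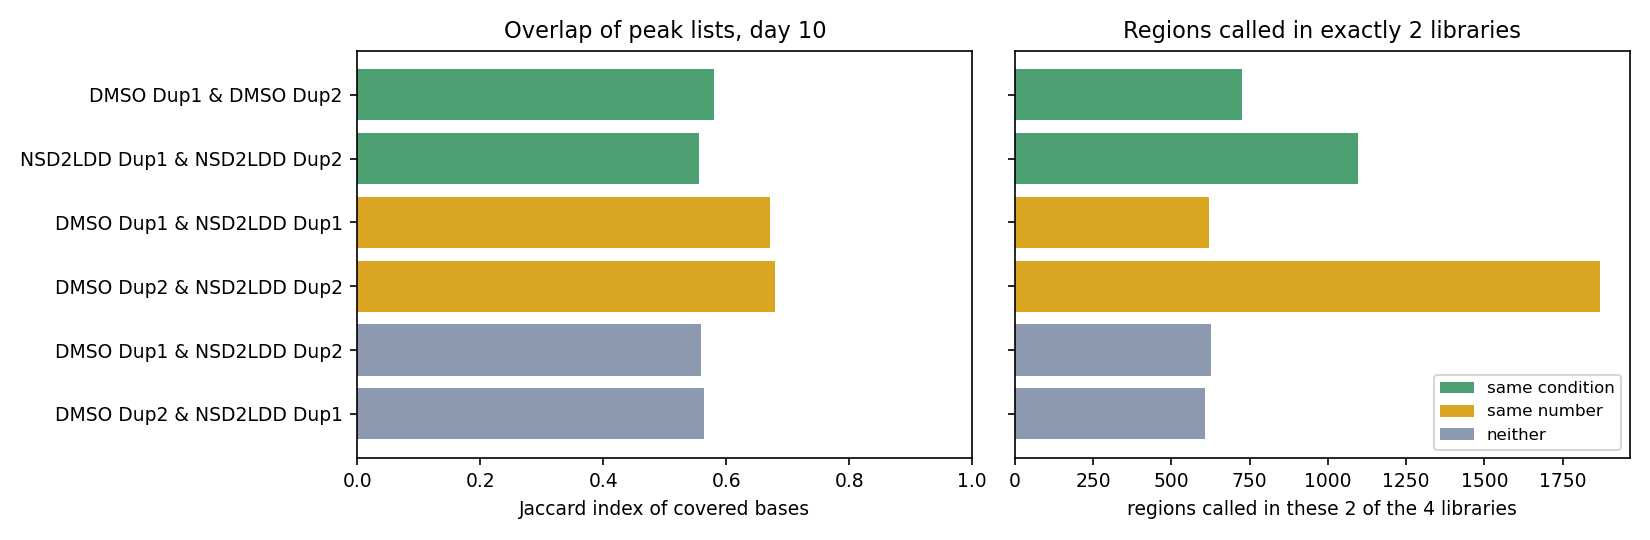
Jaccard index of covered bases (left) and number of regions called in exactly the 2 libraries named (right) for the 6 pairs among the 4 day 10 libraries, coloured by what the pair shares. The pairs with the same number reach 0.672 and 0.678, and the Dup2 pair holds 1871 regions against 1095 for the NSD2LDD pair and 727 for the DMSO pair.

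No region and no gene passed the test of NSD2LDD against DMSO at day 10. Of 36015 regions called in at least 2 of the 4 libraries, 0 were lower (0%) and 0 higher (0%) in limma at an adjusted p under 0.05, and the smallest adjusted p was 0.343. Unadjusted, 2202 (6.11%) had a p under 0.05. This share depends on the minimum, which admitted 727 regions through the DMSO pair alone and 1095 through the NSD2LDD pair alone. These regions had no peak in the other condition, so the minimum fixed their direction. With the minimum raised to 3 libraries, 527 of 30467 regions had an unadjusted p under 0.05. The 6.11% therefore cannot be read against the nominal rate. Of 14908 protein-coding genes, measured over the body and 5 kb either side, 0 were lower (0%) and 0 higher (0%), and the smallest adjusted p was 0.265. Unadjusted, 432 (2.9%) had a p under 0.05. The count for regions differed between fits. It was 215 lower and 247 higher when all 22 libraries shared the estimate, 196 and 221 with limma without trend and robust, and 201 and 224 with windows around peak summits. On simulated coverage the main fit called unchanged regions more often than its nominal rate. The fits with larger counts were not simulated, so their error rates are unknown and their counts are not a lower limit. The values that follow are descriptions of 2 libraries against 2.

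Regions called in only 1 condition held weak peaks. The median -log10 q of their peaks, as deposited, was 6.44 and 6.43 in the DMSO libraries and 6.50 and 6.61 in the NSD2LDD libraries, against 22.4 to 24.8 for peaks in regions of all 4 libraries. In rank these medians lay at the 15.6 to 20.1 percentile of their own list. Regions called in 1 library of each condition had similar medians, 5.75 to 6.84. Where all 4 libraries called a region, the log2 difference had a median of -0.00029, which the scaling of each library by its median sets near 0. Around it, 95% of regions lay between -0.54 and 0.53, and 70 of 25547 (0.274%) differed over 2-fold.

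Few of the regions particular to 1 condition lay at gene ends. Of the regions called in both DMSO libraries, those called in no NSD2LDD library made up 0.547% within 1 kb of a protein-coding gene end (57 of 10421). The share was 3.15% inside protein-coding genes (291 of 9242), 3.61% inside other genes (109 of 3022) and 4.62% outside any gene (270 of 5840). Of those called in both NSD2LDD libraries, the share called in no DMSO library was 0.444% at gene ends (46 of 10350), 5.84% inside protein-coding genes (573 of 9817), 4.26% inside other genes (131 of 3078) and 5.69% outside any gene (345 of 6066). Protein-coding gene bodies held 52.3% of the NSD2LDD-only regions and 40.0% of the DMSO-only regions. The regions called in 1 library of each condition lay between, at 45.4%, and those of all 4 at 31.2%. Outside any gene lay 31.5% of the NSD2LDD-only and 37.1% of the DMSO-only regions. There the regions of 1 library of each condition had 33.4% and those of all 4 had 19.0%. These shares were not tested, since regions of 1 library are not replicates.

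**Figure D3:**
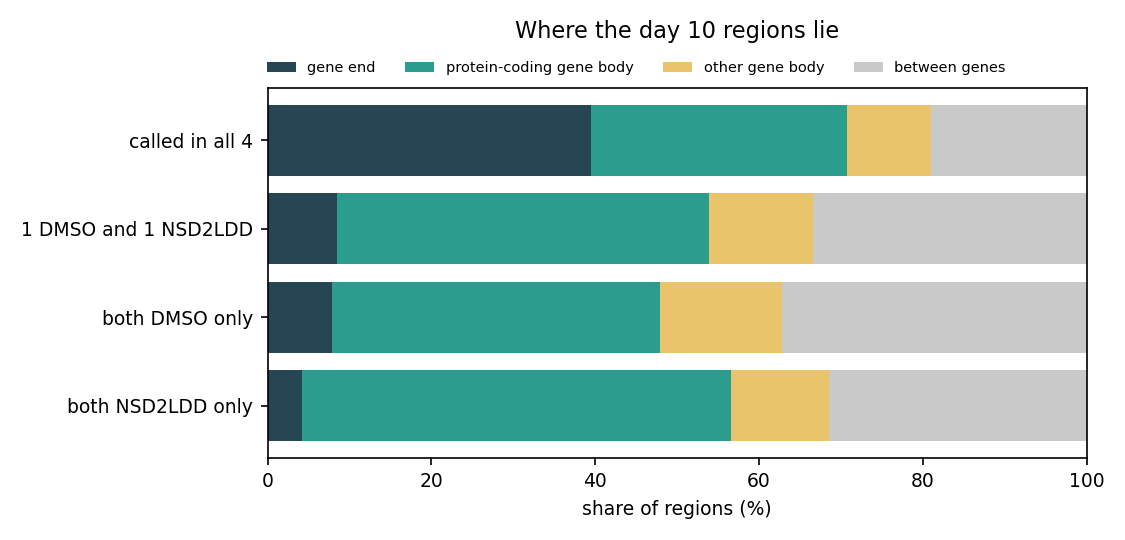
Share of regions (%) at gene ends, in protein-coding gene bodies, in other gene bodies and between genes, for regions called in all 4 libraries, in 1 of each condition, in both DMSO only and in both NSD2LDD only. Gene ends hold 39.5% of the regions of all 4 libraries and 4.20% to 8.51% of the other sets, and protein-coding bodies hold 52.3% of the NSD2LDD-only set.

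Day 4 separated the same regions only weakly. Of the 727 DMSO-only regions, 53.8% and 63.1% were called in the 2 day 4 DMSO libraries and 47.7% and 56.5% in the 2 day 4 NSD2LDD libraries. Of the 1095 NSD2LDD-only regions, the shares were 37.0% and 49.2% in day 4 DMSO and 43.0% and 51.1% in day 4 NSD2LDD. The 2 treatments overlapped at day 4 in both sets. Regions called in 1 library of each condition at day 10 gave 41.2% and 54.1% in day 4 DMSO and 45.2% and 53.7% in day 4 NSD2LDD. Of the DMSO-only regions, 4.26% (31) were called in both DMSO and no NSD2LDD library at day 4 and 3.03% (22) in the reverse. Of the NSD2LDD-only regions, 3.84% (42) had both NSD2LDD and no DMSO library at day 4 and 2.83% (31) the reverse. In the regions called in 1 library of each condition, 3.17% were called in both DMSO and no NSD2LDD library at day 4. The reverse held for 4.27%, and both shares lay close to those of the 2 sets. More day 4 DMSO than NSD2LDD libraries called 28.9% of the DMSO-only regions, and fewer called 17.5%. The shares were 22.3% and 29.2% for NSD2LDD-only regions, and 23.8% and 26.3% for regions of 1 library of each condition. This lean was not tested. The difference between the day 10 and day 4 effects was tested over 42473 regions, of which limma called 0 lower (0%) and 0 higher (0%). Unadjusted, 1602 (3.77%) had a p under 0.05. With all 22 libraries in the fit, 30 were lower and 19 higher.

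The TKO libraries, which have short lists (30699 and 26887 peaks), called 19.0% and 8.80% of the DMSO-only regions and 35.7% and 19.2% of the NSD2LDD-only regions. Of the regions of 1 library of each condition they called 34.3% and 18.0%, close to the NSD2LDD-only set and above the DMSO-only set. The untreated day 0 libraries called 53.8% and 20.5% of the DMSO-only set, 42.9% and 9.04% of the NSD2LDD-only set and 44.1% and 11.7% of the regions of 1 library of each condition. Of the 120 DMSO-only regions called in both day 0 libraries, 101 (84.2%) were called in no TKO library. The share was 46.7% (35 of 75) for NSD2LDD-only regions, 56.4% (177 of 314) for regions of 1 library of each condition and 7.94% (1604 of 20209) for regions of all 4. DMSO-only regions were thus absent from TKO more often than either comparison set of similar peak strength, a description that was not tested.

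Promoters were read from RefSeq windows running from 250 bases before to 50 after each start site (GRCh38.p14). Of 34961 windows, 15343 were covered in at least 1 of the 4 libraries and 13563 in all 4. The windows belong to 27195 genes, so a gene may have several. A gene was counted where at least 1 of its windows separated the conditions, and its other start sites may have stayed covered. Both DMSO and no NSD2LDD library covered 81 windows (0.528% of the covered windows), which include 59 protein-coding genes, and both NSD2LDD and no DMSO library covered 38 (0.248%), with 25 protein-coding genes. The 5 promoters printed here were chosen after their values were seen, because their pattern extended to day 4 or to TKO, or because the gene is an interferon target. For each, the 250 bases before the start site are given 5′ to 3′ on the gene's strand, which is plus for all 5, with capitals for the bases inside peaks of both libraries of the condition that called them.

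Both DMSO libraries covered the promoters of KLHL4, a Kelch-like protein gene (chrX:87517552-87517801), and ARHGEF4, a guanine nucleotide exchange factor gene (chr2:130836664-130836913).
KLHL4: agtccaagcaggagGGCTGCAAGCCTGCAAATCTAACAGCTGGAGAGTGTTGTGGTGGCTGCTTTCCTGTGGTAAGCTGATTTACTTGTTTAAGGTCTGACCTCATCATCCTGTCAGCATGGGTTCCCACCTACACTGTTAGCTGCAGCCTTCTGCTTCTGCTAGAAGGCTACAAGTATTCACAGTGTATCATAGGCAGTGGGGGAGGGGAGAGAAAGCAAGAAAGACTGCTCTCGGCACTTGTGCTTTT
ARHGEF4: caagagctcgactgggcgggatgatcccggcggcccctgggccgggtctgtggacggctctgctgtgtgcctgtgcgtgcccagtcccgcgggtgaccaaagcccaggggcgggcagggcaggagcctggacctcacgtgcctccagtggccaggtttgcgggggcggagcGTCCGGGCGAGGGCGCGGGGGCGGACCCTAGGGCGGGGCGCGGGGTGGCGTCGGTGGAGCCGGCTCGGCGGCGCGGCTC
The KLHL4 window of 300 bases was covered over 295 and 286 bp in day 10 DMSO and over 264 and 144 bp in day 4 DMSO, and by no peak in the 4 NSD2LDD libraries of either day. No TKO library covered it, and the day 0 libraries covered 0 and 133 bp. At ARHGEF4, coverage was 156 and 129 bp in day 10 DMSO, 154 and 169 bp in day 4 DMSO, 236 and 0 bp at day 0, and 0 in every NSD2LDD and TKO library. Both promoters thus separated the treatments at both days, as 5 of the 59 genes did, while 2 of the 59 showed the opposite at day 4. Of the 59, 45 were covered in no TKO library and 2 in both, against 28 in no day 0 library and 3 in both. The start sites of KLHL4 and ARHGEF4 fell in the regions chrX:87517557-87518137 and chr2:130836808-130837159.

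Both NSD2LDD libraries covered the promoters of F2RL3, the thrombin receptor gene PAR4 (chr19:16888749-16888998), BAHCC1, which encodes a chromatin protein with a BAH domain (chr17:81395207-81395456), and IFI44, an interferon-induced gene (chr1:78649539-78649788).
F2RL3: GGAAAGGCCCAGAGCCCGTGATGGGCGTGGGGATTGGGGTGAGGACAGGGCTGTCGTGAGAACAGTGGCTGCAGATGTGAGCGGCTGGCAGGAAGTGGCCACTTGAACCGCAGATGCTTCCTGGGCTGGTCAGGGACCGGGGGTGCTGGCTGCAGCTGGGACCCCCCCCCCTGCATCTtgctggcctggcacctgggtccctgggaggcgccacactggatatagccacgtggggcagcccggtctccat
BAHCC1: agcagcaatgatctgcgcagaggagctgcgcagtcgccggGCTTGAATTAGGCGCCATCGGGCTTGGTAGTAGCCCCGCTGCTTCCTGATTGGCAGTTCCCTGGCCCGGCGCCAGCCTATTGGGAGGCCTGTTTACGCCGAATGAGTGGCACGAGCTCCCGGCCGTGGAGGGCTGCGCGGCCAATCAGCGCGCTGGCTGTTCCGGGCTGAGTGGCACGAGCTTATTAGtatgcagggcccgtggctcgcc
IFI44: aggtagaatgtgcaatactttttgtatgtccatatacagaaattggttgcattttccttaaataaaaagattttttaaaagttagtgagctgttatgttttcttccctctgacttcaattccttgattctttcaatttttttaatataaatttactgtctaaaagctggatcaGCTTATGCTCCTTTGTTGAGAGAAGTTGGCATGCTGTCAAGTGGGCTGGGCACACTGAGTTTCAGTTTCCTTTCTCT
The F2RL3 window was covered over 191 and 178 bp in day 10 NSD2LDD and over 267 and 200 bp in TKO, and by no peak in the other 8 KMS11 libraries. BAHCC1 showed the same pattern, with 228 and 219 bp in day 10 NSD2LDD, 235 and 264 bp in TKO and 0 elsewhere. Among the 25 genes, 5 were covered in both TKO libraries and 3 in both day 0 libraries. At day 4, 0 were NSD2LDD-only and 2 were DMSO-only. IFI44 was covered over 127 and 283 bp in day 10 NSD2LDD and over 128 bp in the Dup2 day 4 DMSO library, and by no peak in the other 9, TKO included. Its day 10 pattern therefore had no counterpart at day 4.

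The motifs of 4 known factors were counted on both strands of these 250 bases, overlapping matches included. The core of the interferon-stimulated response element (GAAA, any 2 bases, GAAA) matched once in IFI44, within the bases in capitals, and in no other of the 5. It occurs in 3.02% of 34789 promoter windows of this length. The CCAAT box matched 3 times in BAHCC1 and once in F2RL3, all within capitals, and once in IFI44 outside them (32.0% of windows hold it). The GC box GGGCGG matched 5 times in ARHGEF4, 2 of them within capitals (42.6% of windows). The AP-1 site TGANTCA matched in none of the 5 (6.55% of windows), and KLHL4 held none of the 4 motifs. GC content of the 250 bases was 50.0% in KLHL4, 76.8% in ARHGEF4, 66.8% in F2RL3, 65.2% in BAHCC1 and 34.0% in IFI44, against a median of 58.0% over all windows.

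Among the remaining protein-coding promoters that only the DMSO pair covered were those of CDKN2C, an inhibitor of cyclin-dependent kinases, BID, a death-promoting BCL2 family gene, SREBF1, a regulator of lipid synthesis, and IGFBP3, which binds insulin-like growth factors. CDKN2C was covered over 21 and 209 bp in DMSO, BID over 169 and 69 bp, SREBF1 over 182 and 228 bp and IGFBP3 over 228 and 213 bp. Both day 4 NSD2LDD libraries covered CDKN2C (57 and 61 bp), BID (144 and 148 bp) and SREBF1 (177 and 125 bp), and 1 covered IGFBP3 (151 bp). Only the NSD2LDD pair covered TLR3, a receptor for double-stranded RNA (221 and 274 bp), ULBP2, a ligand of the natural killer receptor NKG2D (203 and 113 bp), and GBP3, an interferon-induced GTPase gene (98 and 300 bp). At day 4, both DMSO libraries covered TLR3 over 219 and 300 bp and GBP3 over 30 and 32 bp. In none of these 7, picked for their known roles, was the day 10 pattern seen at day 4. These values describe single windows. Within 1 kb of the ends of BID, peaks covered 879 and 650 bp in day 10 DMSO and still 480 and 466 bp under NSD2LDD.

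The best-covered regions of the DMSO pair lay mostly between genes. Of the 10 with the most bases covered in the lower DMSO library, 6 lay between genes, 1 at a gene end and none passed limma (adjusted p 0.343 to 0.513). All 10 were called in both day 4 NSD2LDD libraries, and 7 in no TKO library. A region 114998 bp from SOX9, a developmental transcription factor gene (chr17:72004896-72006022), was covered over 784 and 1127 bp in day 10 DMSO and by no peak in day 10 NSD2LDD. At day 4 it was covered over 667 and 644 bp in DMSO and 979 and 986 bp under NSD2LDD, at day 0 over 439 and 596 bp, and in TKO over 882 and 138 bp. It thus had a peak in every KMS11 library except the day 10 NSD2LDD pair. It passed the threshold when either TKO library was left out (adjusted p = 0.0314 and 0.0176 in limma), against 0.343 with all 12.

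Of the other DMSO-only regions, one 32533 bp from NEUROD6, a neuronal transcription factor gene (chr7:31373259-31374289), was covered over 729 and 817 bp in day 10 DMSO and by no peak in day 10 NSD2LDD. It was also covered over 689 and 713 bp in day 4 DMSO and 488 and 379 bp in day 4 NSD2LDD, but by no peak in day 0 or TKO libraries. Coverage at this region was confined to the cells cultured with DMSO or NSD2LDD at day 4 and with DMSO at day 10, among the 12 libraries. The start site of LYPD1, a GPI-anchored modulator of acetylcholine receptors (chr2:132669826-132670824), was covered over 586 and 986 bp in day 10 DMSO, 763 and 466 bp in day 4 DMSO, 742 and 305 bp in day 4 NSD2LDD and 436 and 0 bp at day 0, with none in TKO. Inside DLG2, a synaptic scaffold gene, coverage was 570 and 623 bp in day 10 DMSO, and inside MAGI2, another scaffold gene, 655 and 675 bp. Inside GGA1, a clathrin adaptor gene, it was 599 and 706 bp, and this was the only one of the 10 with no peak in either day 4 DMSO library. The 4 others lay near UQCRFS1, SGCZ, ST8SIA3 and ABTB3, with 613 to 1056 bp in day 10 DMSO.

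The best-covered regions of the NSD2LDD pair lay mostly inside genes, with 1 of 10 between genes and 1 at a gene end, and none passed limma (adjusted p 0.426 to 0.576). At day 4, 4 of the 10 were called in both DMSO libraries and 2 in neither. A region 19563 bp from SEPSECS, a selenocysteine synthesis gene (chr4:25099466-25100451), was covered over 819 and 986 bp in day 10 NSD2LDD and by no peak in day 10 DMSO. It was covered over 264 and 504 bp in TKO, 353 and 0 bp in day 4 DMSO, 240 and 0 bp at day 0, and by no peak in day 4 NSD2LDD. One in a non-coding gene 241121 bp from SOX2, a stem cell transcription factor gene (chr3:181955557-181956362), was covered over 581 and 615 bp in day 10 NSD2LDD and by no peak in day 10 DMSO. At day 4 it was covered over 806 and 523 bp in DMSO and 782 and 737 bp under NSD2LDD. The day 10 DMSO pair and the TKO pair were the only KMS11 libraries without a peak there.

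At the end of POU5F1, which encodes the pluripotency factor OCT4 (chr6:31164834-31165370), coverage was 516 and 514 bp in day 10 NSD2LDD, 257 and 451 bp in day 4 NSD2LDD, 208 and 0 bp in day 4 DMSO and none in day 10 DMSO. Inside HPGDS, a prostaglandin D synthase gene (chr4:94305401-94306093), it was 498 and 501 bp in day 10 NSD2LDD, 0 and 265 bp in day 4 NSD2LDD and 362 and 331 bp in TKO. No DMSO library of either day and no day 0 library had a peak in the HPGDS region. Inside PRR5, a subunit gene of the kinase complex mTORC2, coverage was 554 and 839 bp in day 10 NSD2LDD, 606 and 0 bp in day 4 NSD2LDD and 847 and 0 bp in TKO, again with none in DMSO or at day 0. Inside FNIP1, a regulator of AMPK and mTOR signalling, it was 609 and 681 bp, and day 4 libraries of both treatments covered it as well. The others lay inside CEP170 and LRMDA and near CTSC and SPATA31D1, with 504 to 689 bp in day 10 NSD2LDD.

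**Figure D4:**
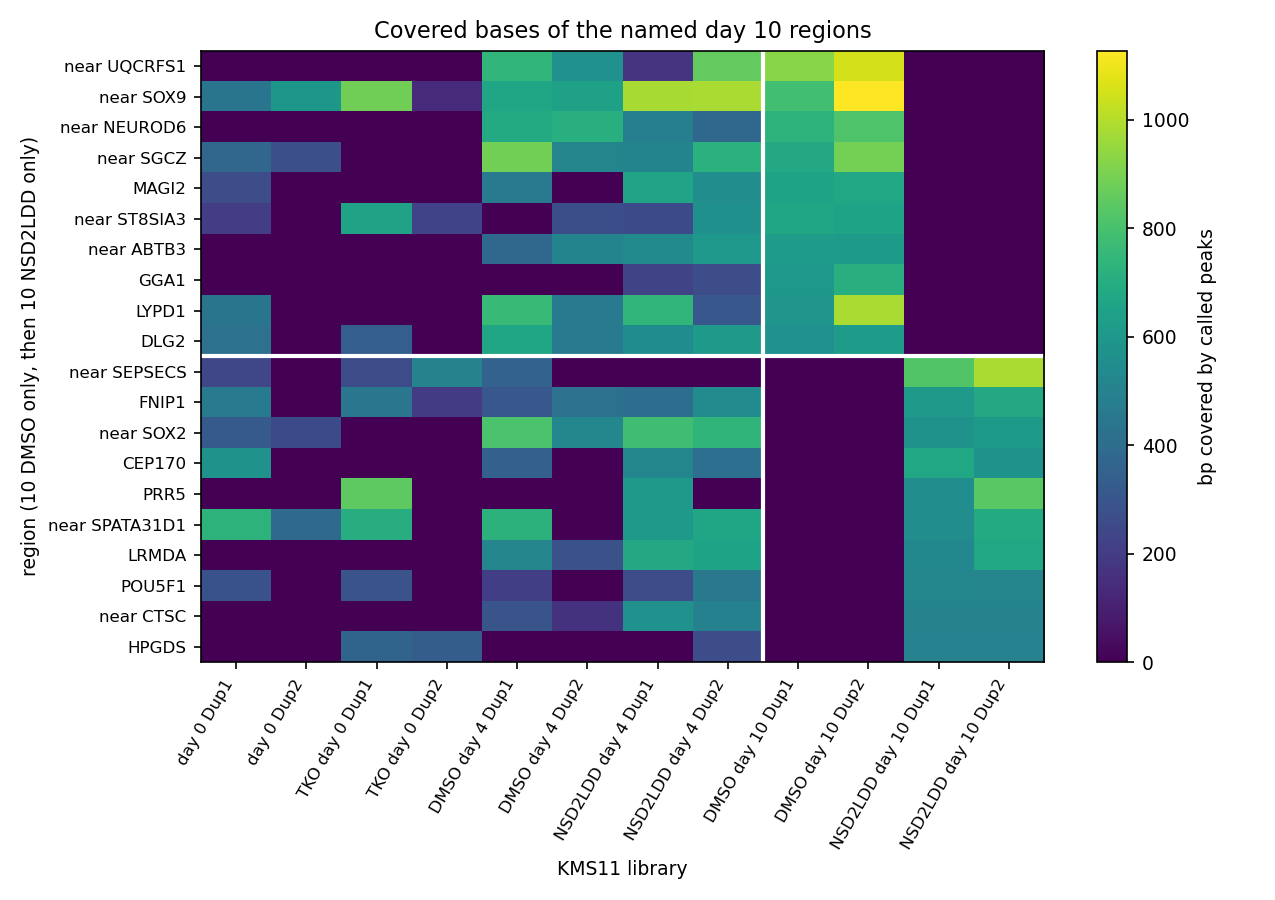
Bases covered by peaks (colour, bp) in the 12 KMS11 libraries for the 10 best-covered regions of the DMSO pair (upper block) and of the NSD2LDD pair (lower block), named by the gene they lie in or near. The 4 day 10 columns on the right differ because the regions were chosen on them, and all 10 upper regions also have peaks in both day 4 NSD2LDD libraries.

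Few regions were separated the same way at both days: 31 of the 727 DMSO-only regions (4.26%) and 42 of the 1095 NSD2LDD-only regions (3.84%). These shares are close to the 3.17% and 4.27% of regions called in 1 library of each condition that showed the same patterns at day 4. Of the 31, 25 were called in no TKO library and 1 in both, against 16 in no day 0 library and 3 in both. Of the 42, 21 were called in no TKO library and 8 in both, against 21 in no day 0 library and 1 in both. Those of the DMSO libraries included a region in KSR2, a scaffold of RAS signalling (chr12:117774971-117775653), with 683 and 295 bp at day 10 and 511 and 217 bp at day 4. They also included one in MAFG, a small MAF transcription factor gene (198 and 457 bp at day 10), one 969 bp from GADD45B, a stress response gene (276 and 278 bp), and one 10275 bp from KLF2, a lymphocyte transcription factor gene (170 and 393 bp). None of these 4 had a peak in both TKO libraries or in both day 0 libraries. The KLF2 region had 157 and 0 bp in TKO. At day 0 the KSR2 region had 0 and 224 bp, and those at MAFG, GADD45B and KLF2 had no peak. Those of the NSD2LDD libraries included regions in SRRM3, a splicing factor gene (chr7:76260268-76260652), with 274 and 385 bp at day 10, 258 and 282 bp at day 4 and 210 and 208 bp in TKO, and in CLPTM1, a membrane protein gene (298 and 489 bp at day 10, 277 and 419 bp in TKO). A region in MRE11, a DNA break repair gene, was covered over 273 and 238 bp at day 10 and 273 and 273 bp at day 4, with none in TKO or day 0. These genes were picked for their known roles after the values were seen.

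Regions called in all 4 libraries with values that did not overlap between conditions numbered 1867 lower (7.31%) and 1514 higher (5.93%) under NSD2LDD. Inside SLC44A1, a choline transporter gene (chr9:105259395-105260469), coverage was 720 and 1075 bp in day 10 DMSO and 215 and 312 bp under NSD2LDD (log2 difference -1.44 ± 0.43 SE, limma adjusted p = 0.513). At day 4 the same region was covered over 1070 and 1073 bp in DMSO and 895 and 983 bp under NSD2LDD, and in TKO over 0 and 155 bp. Inside SYN3, a synaptic vesicle protein gene, coverage was 786 and 1125 bp in DMSO and 170 and 493 bp under NSD2LDD (-1.38 ± 0.37). In the other direction, a region 339212 bp from FHIT, a fragile site tumour suppressor gene, had 219 and 350 bp in DMSO and 867 and 794 bp under NSD2LDD (1.30 ± 0.51). Inside DYNC1I1, a dynein subunit gene, coverage was 145 and 384 bp in DMSO and 622 and 906 bp under NSD2LDD (1.31 ± 0.68). At FHIT the day 4 DMSO libraries were covered over 1051 and 842 bp, as much as those under NSD2LDD (728 and 1032 bp). The difference between days was 1.50 ± 0.72 there and -1.18 ± 0.60 at SLC44A1 (limma adjusted p = 1.00 for both).

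NSD2 itself was covered over 1154 and 917 bp in day 10 DMSO and 1225 and 868 bp under NSD2LDD, with values that overlapped (log2 difference -0.0070 ± 0.36 SE, limma adjusted p = 1.00). Its window overlaps NELFA, and degradation of the protein would not be read in peak coverage. FGFR3, the receptor kinase gene on the other side of the t(4;14) breakpoint, had 811 and 1064 bp in DMSO and 673 and 1263 bp under NSD2LDD (-0.012 ± 0.36). MYC, a driver of proliferation, had 1486 and 1761 bp and 1768 and 2102 bp (0.22 ± 0.17), CCND2, a D-type cyclin gene, 1396 and 1594 bp and 1586 and 1709 bp (0.11 ± 0.19), and IRF4, a plasma cell transcription factor gene, 1234 and 1556 bp and 1009 and 1853 bp (-0.022 ± 0.20). MAF, a transcription factor gene activated in some myelomas, had 2730 and 4418 bp in DMSO and 2433 and 2752 bp under NSD2LDD (-0.41 ± 0.17), values that overlapped. None of the 6 passed.

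Among genes, 939 (6.3%) had lower and 857 (5.75%) higher values under NSD2LDD without overlap. SPOCK1, a secreted proteoglycan gene (chr5:136975298-137499326), had 654 and 1222 bp in day 10 DMSO and 0 and 233 bp under NSD2LDD (log2 difference -1.92 ± 0.34 SE, limma adjusted p = 0.632). Its day 4 values were 1834 and 1167 bp in DMSO and 727 and 1089 bp under NSD2LDD, also without overlap, and no peak was called in TKO. SPOCK1 was the 1 named gene that passed with all 22 libraries in the fit (adjusted p = 0.0115). CELF4, a neuronal RNA-binding protein gene, had 1166 and 2346 bp in DMSO and 343 and 396 bp under NSD2LDD (-1.72 ± 0.37). DGKI, a diacylglycerol kinase gene, had 630 and 1855 bp against 154 and 380 bp (-1.54 ± 0.56), and CACNA2D3, a calcium channel subunit gene, 480 and 1039 bp against 361 and 0 bp (-1.47 ± 0.49). SORCS3, a neuronal sorting receptor gene, had 555 and 844 bp against 235 and 0 bp (-1.60 ± 0.53). The 10 largest lower values were taken among genes covered in at least 1 library of both conditions. The other 5 of them were at CFAP52, OPN5, GLT1D1, SLC35F4 and TFCP2L1, a transcription factor gene (-1.76 to -1.45).

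Among genes covered in at least 1 library of both conditions, the largest higher value without overlap was at CACNA1A. This is the pore subunit gene of a neuronal calcium channel (chr19:13206442-13506479). It had 201 and 0 bp in DMSO and 624 and 1054 bp under NSD2LDD (1.83 ± 0.40, limma adjusted p = 1.00). Over all genes tested, log2 differences ran from -2.54 to 2.30. CACNA1A had 1429 and 824 bp in TKO and 191 and 0 bp at day 0, and 604 and 679 bp in day 4 DMSO against 989 and 715 bp in day 4 NSD2LDD. The NSD2LDD and TKO libraries thus lay above DMSO and day 0 in every pair of like day. PLEK, a leukocyte substrate of protein kinase C, had 0 and 485 bp in DMSO and 648 and 1629 bp under NSD2LDD (1.74 ± 0.42), with 1178 and 829 bp in TKO and 223 and 0 bp at day 0. At day 4 PLEK overlapped, with 642 and 774 bp in DMSO and 897 and 627 bp under NSD2LDD. FGF1, a fibroblast growth factor gene whose product can bind FGFR3, had 0 and 245 bp against 268 and 1117 bp (1.38 ± 0.63). At day 4 FGF1 had 300 and 0 bp in DMSO and 0 and 0 bp under NSD2LDD, with 348 and 0 bp at day 0 and 273 and 0 bp in TKO. PCSK6, a proprotein convertase gene, had 0 and 233 bp against 468 and 555 bp (1.26 ± 0.41). The 6 others were CCDC158, LOC112267968, SLC6A16, SCG5, POLE2 and TM4SF4 (1.23 to 1.78), and none of the 20 genes passed in limma over all genes tested.

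The 19 gene lists held no called gene. Of 444 list members tested (a gene on several lists counted in each), 24 had lower (5.41%) and 20 higher (4.50%) values without overlap, against 6.3% and 5.75% of all genes. List medians ran from -0.15 to 0.067 on the log2 scale, against -0.0055 over all genes tested. Genes tied to t(4;14) and NSD2 had a median of 0.0020 over 13 tested, none without overlap. Plasma cell identity genes had -0.022 over 23, with 2 lower and 0 higher without overlap. TENT5C, a myeloma tumour suppressor gene that stabilises immunoglobulin mRNA, was 1 of the 2, with 1163 and 2271 bp in DMSO and 742 and 1088 bp under NSD2LDD (-0.75 ± 0.20, limma adjusted p = 1.00). At day 4 TENT5C had 1759 and 1771 bp in DMSO and 1462 and 1308 bp under NSD2LDD, and at day 0 and in TKO values overlapped (985 and 417 bp, 716 and 516 bp). B cell genes had a median of 0.0032 over 13, with 2 lower and 0 higher.

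Signalling lists stayed near 0. AP-1 and MAPK genes had a median of -0.041 over 28 (2 lower and 1 higher without overlap) and NF-kappaB genes -0.0015 over 19 (1 and 0). Interferon response genes had 0.033 over 28, with 1 lower and 2 higher. The 2 higher were IFI44, with 0 and 0 bp in DMSO and 177 and 345 bp under NSD2LDD, and HERC6, an interferon-induced ubiquitin ligase-like gene, with 491 and 742 bp in DMSO and 825 and 1552 bp under NSD2LDD (0.72 ± 0.26). USP18, a negative regulator of interferon signalling, had 712 and 987 bp against 466 and 620 bp (-0.51 ± 0.28), and IRF9, a subunit gene of the interferon transcription factor complex, 767 and 920 bp against 375 and 825 bp (-0.45 ± 0.18). IRF9 values overlapped. Over the list, 1 lower and 2 higher of 28 is near the 12% of all genes without overlap in either direction. IFI44 was tested only because both NSD2LDD libraries covered it, so it had to count as higher. The share over all genes includes genes that entered in this way. Antigen presentation genes had a median of 0.036 over 22 (1 lower and 1 higher), the higher being HLA-DQA1, a class II gene whose window overlaps HLA-DQB1, with 0 and 0 bp in DMSO and 247 and 472 bp under NSD2LDD. HLA-DQA1 likewise entered the test through the NSD2LDD pair alone, which fixed its direction. At day 4 HLA-DQA1 was covered over 556 and 820 bp in DMSO and 420 and 612 bp under NSD2LDD.

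Adhesion and migration genes had a median of -0.0096 over 33 (0 lower and 4 higher without overlap, against 6.3% and 5.75% of all genes). NECTIN1, an adhesion receptor gene, had 1659 and 1651 bp in DMSO and 1822 and 3487 bp under NSD2LDD (0.55 ± 0.21). Cell cycle genes had 0.050 over 38 (2 lower and 3 higher). AURKB, a mitotic kinase gene, had 830 and 1160 bp against 441 and 607 bp (-0.73 ± 0.38), while MYCN had 1544 and 2005 bp against 2002 and 3069 bp (0.44 ± 0.15, values overlapping). Apoptosis genes had -0.028 over 26 (1 and 1), secretion and unfolded protein response genes -0.018 over 24 (1 and 2), and housekeeping genes -0.0081 over 31 (1 and 1). Among genes that write or erase H3K36 and H3K27 methylation the median was 0.0036 over 28 (2 and 1). KDM2A, an H3K36 demethylase gene, had 2123 and 3318 bp in DMSO and 1694 and 2015 bp under NSD2LDD (-0.49 ± 0.16). The PRC2 enzyme gene EZH2 had 1430 and 2509 bp against 1860 and 3118 bp (0.30 ± 0.21), and SETD2, the H3K36 trimethylase gene, 1156 and 1552 bp against 1238 and 1044 bp (-0.22 ± 0.25). EZH2 and SETD2 overlapped between conditions.

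The lowest and highest of the 19 medians belonged to lists of other lineages. Neuronal adhesion and synapse genes had a median of -0.098 over 31 (3 lower and 1 higher without overlap), and developmental regulators -0.072 over 44 (5 and 2). Of all genes, 6.3% were lower and 5.75% higher without overlap. CSMD1, a large neuronal membrane protein gene, had 1737 and 1963 bp in DMSO and 530 and 1633 bp under NSD2LDD (-0.83 ± 0.44). MSX1, a homeobox gene, had 772 and 1522 bp against 559 and 667 bp (-0.68 ± 0.41). Members went both ways, from -0.68 to 1.25 among developmental regulators and from -1.60 to 0.40 among neuronal genes. T and NK cell markers had -0.15 over 13 (0 and 1), erythroid and megakaryocyte markers -0.089 over 9, myeloid markers 0.039 over 9 and stromal and endothelial markers 0.067 over 12, the last 3 with none without overlap.

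**Figure D5:**
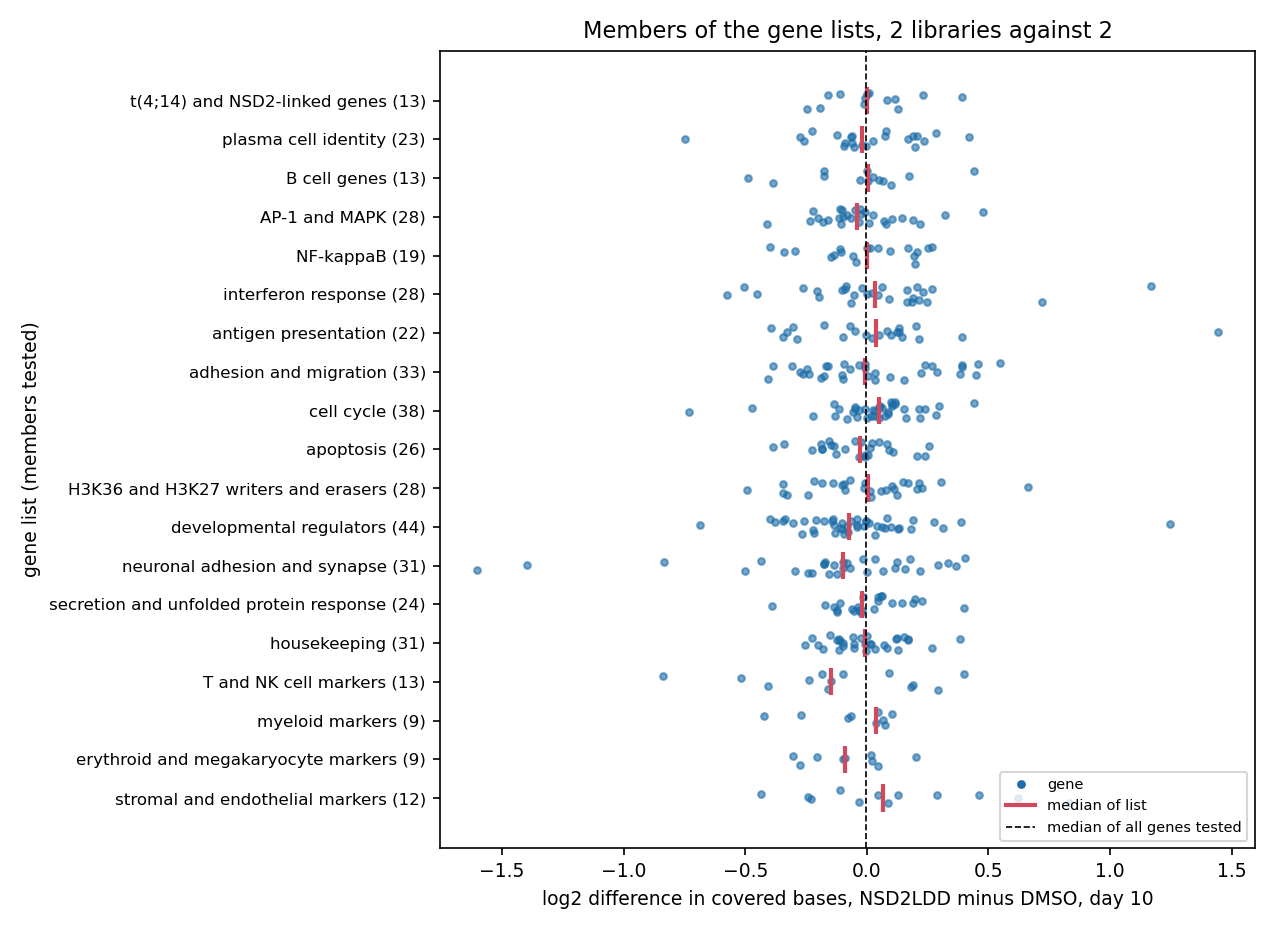
Log2 difference in covered bases, NSD2LDD minus DMSO at day 10, for the tested members of the 19 gene lists (points, with vertical jitter only), the median of each list (red line) and the median of all 14908 genes tested (dashed, -0.0055). List medians lie between -0.15 and 0.067, and no member passed the test.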

How the data were processed

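ATAC-seq peak lists of 22 libraries on hg38 were deposited. Per the submitters' processing notes, fastp, BWA, SAMtools, Picard, MACS3 and deepTools were used. The sources used here give no versions, settings or Tn5 shift. Each list holds the peaks of 1 library. The deposited -log10 q (2.00 at the lowest) served to rank and filter peaks. The deposited fold enrichment (a ratio over modelled background) and the -log10 p and score that the authors deposited entered no test. Counts are absent, so depth and its precision are unknown.

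Peaks of the 4 day 10 lists on chromosomes 1 to 22 and X were merged into regions. Values were log2(covered bp + 100) for regions and log2(covered bp + 200) for 19970 protein-coding genes of RefSeq GRCh38.p14 (body and 5 kb either side), less the library median over features called in all libraries of the fit. limma 3.58.1 (trend and robust, R 4.3.3) fitted 6 group means to the 12 KMS11 libraries (6 residual degrees of freedom), over features covered in at least 2 of the 4, with Benjamini-Hochberg adjustment at 0.05 over all features tested. The day 10 minus day 4 contrast used regions merged from 8 lists. Coverage was checked against bedtools 2.31.1. Tested on simulated data, the fit recovered most regions lost altogether, all drawn from those called in all 12 libraries. It also called unchanged regions above its nominal rate. Losses of regions called in fewer libraries were not simulated, so power for them is unknown. Python 3.11.15 (numpy 2.4.6, pandas 2.3.3; figures in matplotlib 3.10.9) did the rest.

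Named regions are the 10 with the most covered bases in the lower library among those called in both libraries of one condition and neither of the other, and the 5 largest log2 differences in each direction among regions called in all 4 without overlap. Named genes are the 10 largest log2 differences in each direction without overlap, among genes covered in at least 1 library of both conditions. The 2 smallest p of each list are also named, as are NSD2, FGFR3, MYC, CCND2, IRF4 and MAF. Promoters are named where only 1 condition's pair covered a window of theirs. Some others (EZH2, SETD2, AURKB, USP18, CSMD1, MSX1, IFI44) were named after their values were seen, and not every gene under the rule is printed. The annotation lacks 2 list members. The groups and the 19 lists were chosen with earlier results of these data known. Alternatives were stricter and equal-length lists, other scalings and bases added, other windows, minimums and library sets, replicate block, summit windows, and leaving out each library.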

Additional observations from a re-analysis of the deposited data

How the results depend on the processing

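No called feature existed to lose, so the alternatives bear on the counts of 0. For regions, 8 were lower and 5 higher with lists of equal length, 1 and 0 with quantile normalization, 215 and 247 with all 22 libraries, 196 and 221 without trend and robust, 201 and 224 with summit windows, 188 and 204 as called or not called, and 1 and 0 with regions merged from 12 lists. Leaving out 1 library gave 0 to 1 lower and 0 to 9 higher, the 9 without KMS11_DMSO_D10 replicate 2. The cause was not tested, except that near-zero spreads entered the called or not called fit by its construction. For genes, 1 was lower and 1 higher with all 22 libraries and 2 and 2 without trend and robust. For the difference between days, 1 was lower and 0 higher with lists of equal length, and 30 and 19 with all 22 libraries. Of 30 named regions, 15 passed with all 22 libraries, 9 without trend and robust and 9 with summit windows. The difference in peak number (1628.5, NSD2LDD minus DMSO) was 0 with lists of equal length by construction. Deviations of the Dup1 libraries correlated at 0.233 between the day 10 groups and at -0.138 to 0.080 between other groups, and the labels do not say that numbers pair samples. With the replicate block, 0 regions and 0 genes were called (2132 and 430 at an unadjusted p under 0.05), and 0 in the 4 day 10 libraries alone with the block (2638 and 933), an alternative chosen after seeing the data. The unadjusted region counts include regions admitted to the test through the pair of either condition alone. The day difference gave 0 with the block. Unknown depth limits every statement that a peak was not called.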
